A study of Mus musculus with 2 samples.

Results

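The genes described here are the matrix metalloproteinases (MMPs), the ADAMTS proteases and the tissue inhibitors of metalloproteinases (TIMPs), measured in tumours that the mouse pancreatic carcinoma line Panc02 formed under the skin. Members were all genes whose name on the array is Mmp, Adamts or Timp followed by a number, with the ADAMTS-like genes left out. This gave 42 genes of the 28785 gene names on the array, namely 21 MMPs, 17 ADAMTS genes and 4 TIMPs, on 73 probes. The hosts were C57BL/6 mice, of a sex the labels do not give, that entered either an enriched environment, housing that offers animals more stimulation, or standard housing at 3 weeks of age. Mice of both groups received the same tumour cells under the skin and stayed in their housing for 5 more weeks. Per housing, the tumour RNA of 6 mice was combined into a single pool, called the standard pool and the enriched pool below, and measured on 1 Agilent array of the one-colour type. There were thus no replicates, no p-value was computed, and each value describes 2 pools. Panc02 cells and host are both of mouse origin, so that transcripts of the tumour cells and of host cells in the tissue could not be told apart, nor could fewer cells of a type be told from less RNA per cell.

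MMPs are zinc-dependent enzymes that are secreted or held at the cell surface as inactive precursors and that together can cleave most proteins of the extracellular matrix. ADAMTS proteases are their secreted relatives with thrombospondin repeats, which trim procollagens, cut large proteoglycans or process other matrix and blood proteins. TIMPs bind the active site of these enzymes and block it. In carcinomas much of this system is made by fibroblasts and by infiltrating leukocytes, and less of it by the tumour cells.

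Each level is a log2 intensity with the array's own 75th percentile set to 0, and each difference is enriched minus standard. A gene was measured on an array where the scanner software marked a probe as well above background, and genes of several probes were averaged. Levels of different genes come from different probes and were not compared with each other. The software's own error per spot, combined over both arrays, is given below as the scanner error on the log2 scale. It covers the reading of the array, not the spread between mice.

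Of the 42 members, 32 were measured on both arrays, 4 on 1 array and 6 on neither. Among the 32, 9 were at least 2-fold higher in the enriched pool, or 28.1%, against 5.71% of all 20852 genes measured on both arrays. A further 3 members were at least 2-fold lower, or 9.38%, against 9.46% of all genes, and 20 lay within 2-fold. Of all genes 15.2% were at least 2-fold apart in either direction. The difference was above 0 in 18 of the 32 members, against 52.3% of all genes. The median difference was 0.68 over 16 MMPs, 0.41 over 12 ADAMTS genes and -0.25 over the 4 TIMPs, beside 0.03 over all genes. These medians leave out the members that were too dim, and without a filter on dim probes the MMP median was 0.18 and the ADAMTS median -0.20. The differences reached from -4.25 for Mmp8 to 3.98 for Mmp3, and both ends of that range lie in 1 gene cluster.

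**Figure D1:**
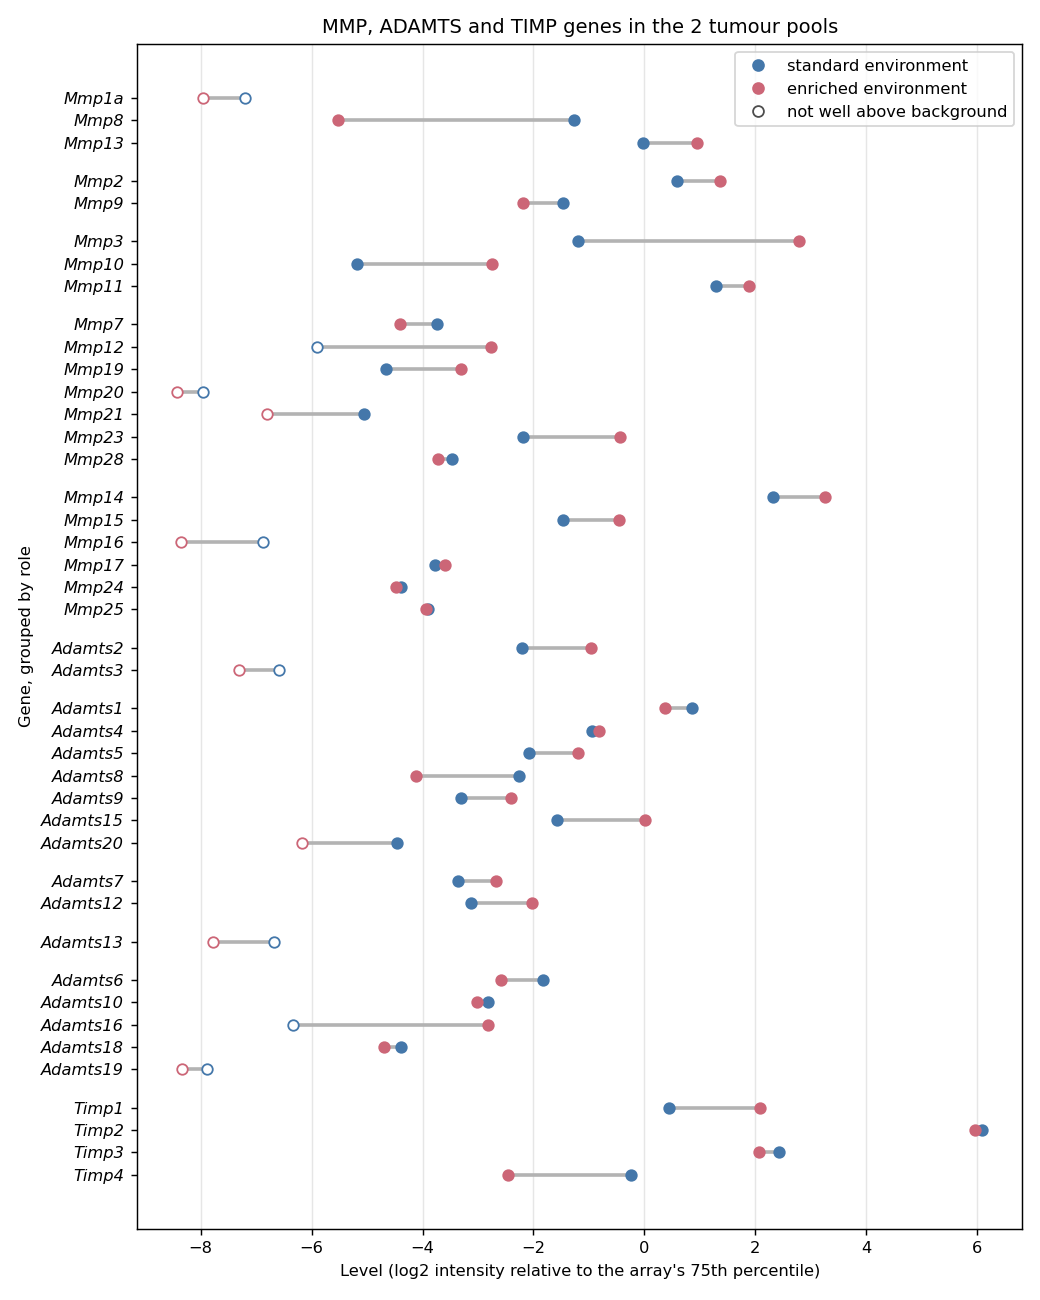
Levels of the 42 genes, grouped by role, in the standard (blue) and enriched (red) environment pools, on a log2 axis relative to the 75th percentile of each array, with open circles where no probe was well above background. Mmp3 is at -1.19 and 2.79, and Mmp8 at -1.27 and -5.52, in the standard and enriched pools.

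The pools also differed in markers of tissues other than tumour. All 10 skeletal muscle markers were at least 2-fold lower in the enriched pool, with a median of -7.91, and their share of the summed signal was 3.63% (standard) against 0.0937% (enriched). Of the 10 measured neutrophil and granulocyte precursor markers 6 were at least 2-fold lower and 1 higher, with shares of 0.182% and 0.0735%, and Elane, Camp and Ngp were not well above background in the enriched pool. All 9 carcinoma epithelium markers were at least 2-fold higher, with a median of 1.85 and shares of 0.273% and 1.11%. The 10 fibroblast markers split into 5 higher, 3 lower and 2 within 2-fold, with shares of 0.178% and 0.506%. The 4 erythroid markers had a median of -5.59, each lower by at least 2-fold, and shares of 0.196% and 0.00422%. Of 6 measured mast cell markers 4, and of 5 measured keratinocyte markers 3, were at least 2-fold higher and none at least 2-fold lower. The keratinocyte gene Trp63 was at -0.63, and Dsg3 was well above background only in the standard pool. The mast cell gene Tpsab1 was well above background only in the enriched pool. Macrophage markers differed less, with a median of 0.13 and shares of 0.248% and 0.269%. The keratins Krt8, Krt18 and Krt19 were well above background in both pools. The part of these tissue differences in the members' differences was not tested.

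All 3 stromelysin genes read higher in the enriched pool, 2 of them by at least 2-fold. Mmp3, stromelysin 1, which cleaves proteoglycans, fibronectin and laminin and activates other MMP precursors, was at -1.19 in the standard pool and at 2.79 in the enriched pool. That is a difference of 3.98, or 15.7-fold, with a scanner error of 0.20, and only 12 of the 20852 genes had a larger one. Mmp10, stromelysin 2, was at -5.17 and -2.74, a difference of 2.43 with a scanner error of 0.31. Its level in the standard pool lay near the lowest level that passed as above background there, -5.68. With normexp background correction the difference was 0.91. That correction included an offset of 50 on every intensity, which raises dim signals and narrows differences between them. Mmp11, stromelysin 3, a product of stromal fibroblasts that furin activates inside the cell, was at 1.30 and 1.88, a difference of 0.58 or 1.50-fold.

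The collagenases differed in direction. Mmp8, the collagenase that neutrophils store in granules, was at -1.27 in the standard pool and at -5.52 in the enriched pool, a difference of -4.25 or 19.0-fold with a scanner error of 0.29. Its level in the enriched pool lay near the lowest level above background there, -6.21, and the difference was -2.45 with normexp correction and -2.73 without background subtraction. Of the other granule genes of the lineage, Mpo at -6.65, Ctsg at -4.67, Ltf at -2.52 and Prtn3 at -0.65 also read lower, by unequal amounts. Lcn2, at -0.08, hardly differed. Elane, Camp and Ngp were well above background only in the standard pool. The neutrophil genes Retnlg, S100a8 and S100a9 were at -3.67, -1.88 and -1.33. The neutrophil receptor genes Csf3r and Cxcr2 differed by 0.61 and 1.44. Mmp13, the main collagenase of mouse connective tissue, was at -0.03 and 0.94, a difference of 0.97 or 1.96-fold, just short of 2-fold. Mmp1a, a mouse counterpart of interstitial collagenase, was not well above background in either pool on either of its probes.

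Among the other enzymes of the cluster, Mmp12, the elastase of macrophages, was well above background only in the enriched pool. Its level there was -2.77, at least 7.55-fold above the lowest level detectable in the standard pool, where its own signal stood at -5.90. With normexp correction the bound was 1.17 on the log2 scale. Of the genes with this pattern 13.1% had a bound of at least 2-fold. Of the 11 macrophage markers 1 was at least 2-fold higher, Cd14 at 1.16, and none at least 2-fold lower. They ranged from -0.11 to 1.16 with 7 above 0, among them Mrc1 at 0.97 and Cd68 at 0.13, while Csf1r was at -0.04. Mmp7, matrilysin, a small MMP of epithelia, was at -3.73 and -4.41, a difference of -0.68, while all 9 carcinoma epithelium markers were higher. Mmp20, the protease of tooth enamel, was not above background in either pool.

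These 8 genes lie in a cluster on chromosome 9, and their probes span 415 kb of the mm7 build from Mmp13 (chr9:7280046-7280105) to Mmp7 (chr9:7695434-7695493). In chromosomal order the differences were 0.97 for Mmp13, a bound of at least 7.55-fold for Mmp12, 3.98 for Mmp3, no measurable level for Mmp1a, 2.43 for Mmp10, -4.25 for Mmp8, no measurable level for Mmp20 and -0.68 for Mmp7. Mmp10 and Mmp8, whose probes lie side by side at 228 kb and 286 kb from the Mmp13 probe, thus differed in opposite directions. In the RefSeq annotation of assembly GRCm38.p6 no protein-coding gene stands between Mmp10 and Mmp8. That annotation also places Mmp1b between Mmp12 and Mmp3, and Mmp27 between Mmp8 and Mmp20. Neither is among the members described here.

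**Figure D2:**
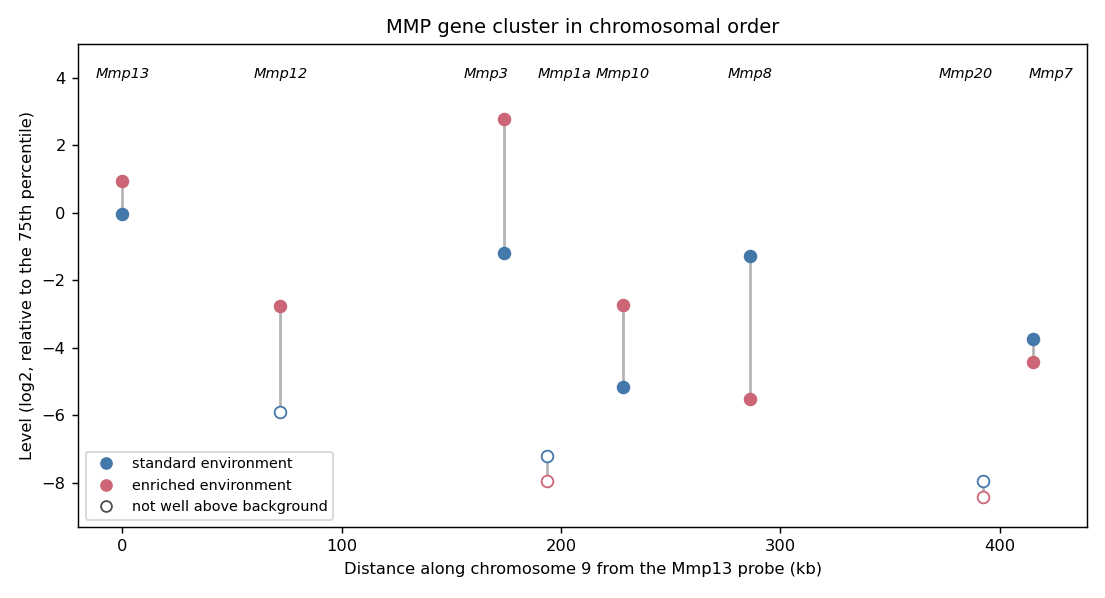
Levels of the 8 members in the chromosome 9 MMP cluster by distance of their probes from the Mmp13 probe in kb, in the standard (blue) and enriched (red) environment pools, with open circles where no probe was well above background. The enriched level is above the standard level from Mmp13 to Mmp10 except at Mmp1a, which was too dim on both arrays, and below it at Mmp8 and Mmp7.

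The promoters of these genes are shown because neighbouring genes of the cluster differed in opposite directions. RefSeq start regions, 250 bases before to 50 after an annotated start in assembly GRCm38.p6, were at hand for 28 of the 42 members. They were searched on both strands for TGAGTCA, the element bound by AP-1 (the Fos and Jun proteins) and long known in MMP promoters. It was found for 6 members, all in the chromosome 9 cluster, namely Mmp13, Mmp12, Mmp3, Mmp1a, Mmp10 and Mmp7, against 5.20% of 32851 start regions of the same length. TATAAA was found in 8 of the 8 cluster members and in 10 of the 28 members, against 13.6% of all start regions. The ETS motif GGAAGT was found in 6 of the 8 and in 8 of the 28, against 23.8%. A member counted if any of its start regions held the motif, whereas the percentages count single regions. The TATAAA match lies after the start in Mmp12 and on the minus strand in Mmp8. No match of 1 motif overlapped a match of another. The 150 bases before the start follow in the direction of the gene, all on the plus strand, with the AP-1 match in capitals.
Mmp13: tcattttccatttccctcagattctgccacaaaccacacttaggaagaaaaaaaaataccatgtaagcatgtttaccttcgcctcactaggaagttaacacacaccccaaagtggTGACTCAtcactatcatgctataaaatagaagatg
Mmp12: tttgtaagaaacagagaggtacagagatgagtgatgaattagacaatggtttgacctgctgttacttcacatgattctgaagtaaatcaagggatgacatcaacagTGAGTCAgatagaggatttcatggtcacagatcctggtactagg
Mmp3: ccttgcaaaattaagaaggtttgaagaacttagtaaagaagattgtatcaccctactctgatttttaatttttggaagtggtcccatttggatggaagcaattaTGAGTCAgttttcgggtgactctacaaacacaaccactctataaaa
Mmp1a: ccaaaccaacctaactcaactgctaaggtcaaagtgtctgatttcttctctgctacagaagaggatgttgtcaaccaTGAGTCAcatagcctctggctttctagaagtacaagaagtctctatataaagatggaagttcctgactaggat
Mmp10: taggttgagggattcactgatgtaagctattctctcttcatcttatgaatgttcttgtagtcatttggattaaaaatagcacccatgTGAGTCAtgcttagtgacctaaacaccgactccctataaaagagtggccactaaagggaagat
Mmp8: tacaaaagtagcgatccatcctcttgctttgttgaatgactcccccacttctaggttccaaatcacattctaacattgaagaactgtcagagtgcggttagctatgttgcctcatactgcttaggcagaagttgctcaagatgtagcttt
Mmp7: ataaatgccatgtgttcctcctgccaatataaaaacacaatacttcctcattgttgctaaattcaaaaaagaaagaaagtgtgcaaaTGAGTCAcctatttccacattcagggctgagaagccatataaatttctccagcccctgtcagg
The windows are Mmp13 chr9:7272364-7272513, Mmp12 chr9:7347224-7347373, Mmp3 chr9:7445672-7445821, Mmp1a chr9:7463991-7464140, Mmp10 chr9:7502192-7502341, Mmp8 chr9:7558279-7558428, Mmp7 chr9:7691940-7692089. Mmp12 and Mmp7 have 2 annotated starts each, and the one with the match is shown. The match begins 35 bases before the start in Mmp13, on the minus strand, 44 in Mmp12, 46 in Mmp3, 73 in Mmp1a, 63 in Mmp10 and 63 in Mmp7. Of the 6 genes with the element, 2 were at least 2-fold higher, Mmp12 was above background only in the enriched pool, Mmp13 was at 0.97, Mmp7 was at -0.68 and Mmp1a was not measurable. The Mmp8 window holds no match. A match is a run of letters and was not tested as a site.

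Both gelatinases lay within 2-fold, on different sides of 0. Mmp2, the gelatinase of fibroblasts, was at 0.59 in the standard and 1.37 in the enriched pool, a difference of 0.78. Mmp9, the gelatinase of neutrophils, macrophages and osteoclasts, was at -1.47 and -2.18, a difference of -0.71 with an SD of 0.07 between its 2 probes. The 7 measured bone and osteoclast markers split into 2 higher, 2 lower and 3 within 2-fold, with a median of -0.29. Their shares of the summed signal were 0.0204% (standard) and 0.00777% (enriched). Ibsp, Dmp1 and Calcr were well above background only in the standard pool, and Sp7 only in the enriched pool. The osteoclast genes among the 7 measured markers were at 1.25 for Dcstamp, 1.08 for Ctsk, 0.14 for Ocstamp and -0.29 for Acp5. The bone genes Bglap, Alpl and Phex were at -6.82, -4.02 and -0.53. One Mmp9 probe was printed on 10 spots, with levels of -1.72 ± 0.05 (SD over spots) in the standard and -2.48 ± 0.06 in the enriched pool. The spots of the 2 arrays did not overlap, -1.80 being the lowest on the one and -2.37 the highest on the other. This shows how far the reading of 1 array varies and says nothing of the spread between mice.

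Of the other secreted or released MMPs outside the cluster, Mmp23 and Mmp19 were higher in the enriched pool. Mmp23, an unusual member with an immunoglobulin-like domain in place of the hemopexin domain, was at -2.19 and -0.44, a difference of 1.74 or 3.35-fold with a scanner error of 0.21. Mmp19 was at -4.65 and -3.30, a difference of 1.35 with a scanner error of 0.25, which was 0.52 both with normexp correction and without background subtraction. Mmp28, epilysin, was at -3.47 and -3.72, a difference of -0.25. Mmp21 was well above background only in the standard pool, at -5.06, at least 2.22-fold above the lowest level detectable in the enriched pool, or by 0.58 on the log2 scale with normexp correction. Bounds of that size were common on that side, with 56.6% of such genes at 2-fold or more.

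Membrane-type MMPs differed little apart from a pair of transmembrane enzymes. Mmp14, which activates the Mmp2 precursor at the cell surface with the help of Timp2, was at 2.32 in the standard and 3.25 in the enriched pool, a difference of 0.93, with 0.78 and 1.08 on its 2 probes. Mmp15 was at -1.46 and -0.46, a difference of 1.002, or 2.003-fold, which puts it on the threshold. The other 3 measured genes were Mmp17 at 0.18, Mmp24 at -0.10 and Mmp25, which leukocytes carry on a lipid anchor, at -0.04. The 2 probes of Mmp17 lay on different sides of 0, at 0.53 and -0.16. Mmp16 was not above background in either pool.

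Among the ADAMTS proteases that cut proteoglycans such as versican and aggrecan, the largest differences went in opposite directions in adjacent genes. Adamts15 was at -1.58 in the standard pool and at 0.00 in the enriched pool, a difference of 1.59 or 3.01-fold with a scanner error of 0.20. Adamts8 was at -2.26 and -4.12, a difference of -1.86 or 3.62-fold, with an SD of 0.06 between its 2 measured probes. Both lie on chromosome 9, far from the MMP cluster, with no protein-coding gene annotated between them. Adamts5 at 0.89 and Adamts9 at 0.90 were higher but within 2-fold, Adamts4 was at 0.13 and Adamts1 at -0.49. Adamts20 was well above background only in the standard pool, on 2 of its 3 probes, with a bound of at least 3.20-fold there, or 0.61 on the log2 scale with normexp correction.

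Of the 4 procollagen and COMP proteases, Adamts2 and Adamts12 were at least 2-fold higher at the mean of their probes, and in both 1 probe lay below 0. Adamts2, which removes the amino-terminal propeptide of fibrillar procollagens, was at -2.20 in the standard and -0.97 in the enriched pool, a mean difference of 1.23 over 4 probes with an SD of 1.03. Its probes differed by 1.60, 1.70, 1.94 and -0.30. Its substrates differed in the same pools by 2.02 for Col1a1, 1.76 for Col1a2 and 2.96 for Col3a1. Adamts12, which cleaves cartilage oligomeric matrix protein (COMP), was at -3.13 and -2.03. Its 3 probes differed by 1.83, -0.18 and 1.65, a mean of 2.14-fold with an SD between probes of 1.11 on the log2 scale. The probe at 1.83 had a standard level of -5.14, near the limit of -5.68. With normexp correction the mean difference of Adamts12 was 0.61. Adamts7, a COMP-cleaving relative, differed by 0.68 with an SD of 0.15 between 2 probes, while Comp itself was at 0.45. Adamts3, which acts on procollagen and on the precursor of a lymphatic growth factor, was not above background in either pool.

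**Figure D3:**
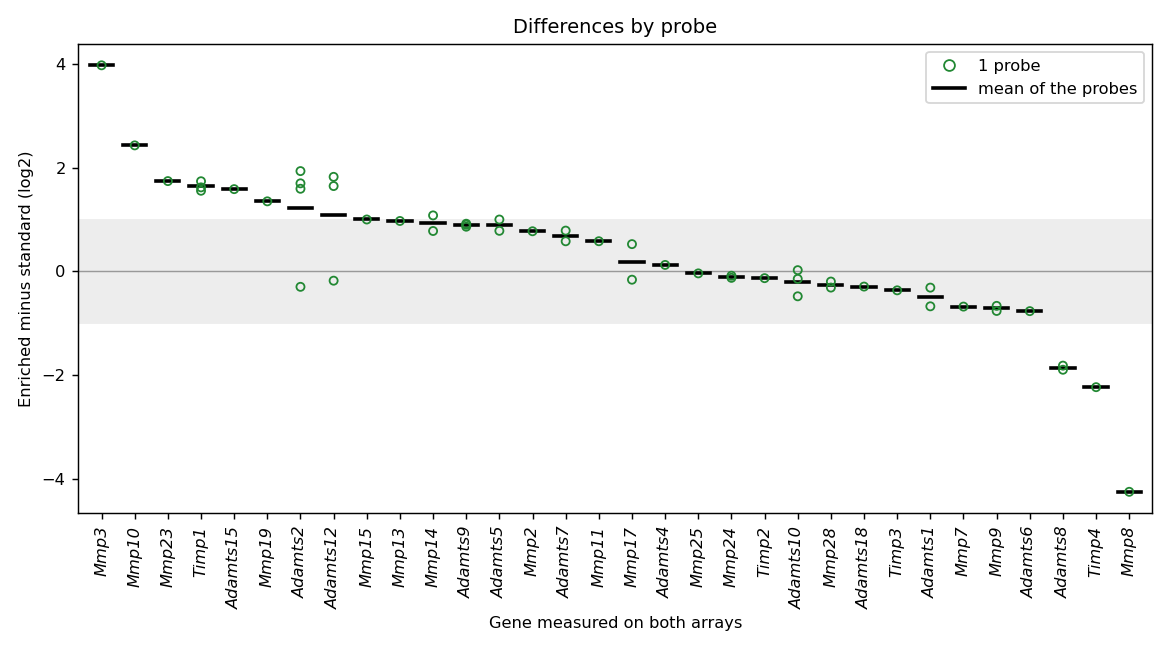
Enriched minus standard environment difference (log2) of every probe that was well above background on both arrays (circles) and the mean per gene (bars), for the 32 measured genes in order, with the zone within 2-fold shaded. The circles of Adamts2 and Adamts12 fall into probes between 1.60 and 1.94 and a single probe below 0 for each gene, whereas the 3 probes of Timp1 lie between 1.56 and 1.74.

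The remaining ADAMTS genes stayed within 2-fold or were dim. Adamts6, which acts on fibrillin microfibrils like Adamts10, was at -1.82 and -2.59, a difference of -0.77. Adamts10 was at -0.20 over 3 probes and Adamts18 at -0.29 on its single measured probe. Adamts16 was well above background only in the enriched pool, on 1 of its 2 probes, at least 7.28-fold above the lowest level detectable in the standard pool, or by 1.101 on the log2 scale with normexp correction. Its other probe was not above background in either pool. Adamts13, which cuts von Willebrand factor and is made mainly in the liver, and Adamts19 were not above background in either pool.

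The 4 inhibitors did not share a direction. Timp1, a soluble inhibitor induced by cytokines, was at 0.45 in the standard and 2.08 in the enriched pool, a difference of 1.64 or 3.12-fold, with an SD of 0.09 between its 3 probes. Timp2, which also takes part in Mmp2 activation, was at 6.09 and 5.96, a difference of -0.13 with a scanner error of 0.20. Timp3, which binds the matrix and also blocks ADAMTS enzymes, was at 2.43 and 2.06, a difference of -0.36. Timp4, an inhibitor of heart, muscle and fat tissue, was at -0.24 and -2.47, a difference of -2.23 or 4.70-fold with a scanner error of 0.21. It was lower in the same pool as the 10 muscle markers, while the fat markers Adipoq and Cfd were higher there by 2.40 and 3.11 and the brown fat gene Ucp1 was at -8.86.

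Genes that control these proteases at the cell surface were mostly within 2-fold, with 6 of 18 measured genes at least 2-fold higher and none at least 2-fold lower. The median was -0.12. Among the higher genes were Pcsk5, a convertase that processes precursors, at 2.83, Plaur, the urokinase receptor, at 1.87, Plau, urokinase, at 1.80, Thbs2 at 1.77 and Plat at 1.21. Urokinase and its receptor were thus both higher, while Plg, the precursor of plasmin, was at -0.46. Reck, a membrane-anchored inhibitor of MMPs, was at -0.26 and Bsg, an inducer of MMPs, at -0.72.

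Other protease families and the substrates were mixed. Of 11 genes of the related ADAM family, some of which shed cell surface proteins, 3 were at least 2-fold higher and none at least 2-fold lower. The higher ones were Adam23 at 2.18, Adam12 at 1.81 and Adam8 at 1.72. Of 4 ADAMTS-like genes, which lack a protease domain, 1 was at least 2-fold lower, Adamtsl2 at -1.94, and of 9 other matrix-degrading proteases only the cathepsin gene Ctsk, at 1.08, passed 2-fold. Among 19 matrix substrates 8 were at least 2-fold higher, among them the fibrillin gene Fbn2 at 4.14, whose standard level of -5.61 lay close to the limit of -5.68, the tenascin gene Tnc at 3.55, Col3a1 at 2.96 and Fbn1 at 2.46, and 2 were at least 2-fold lower, the elastin gene Eln at -2.22 and Dcn at -1.03.

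Known inducers of MMP transcription and the factors they act through were mixed as well. The same shares of all genes, 5.71% higher and 9.46% lower by at least 2-fold, stand beside these counts. Of 12 inducers and modifiers 3 were at least 2-fold higher, the cytokine Il6 at 2.33, the interleukin 1 antagonist Il1rn at 1.66 and the prostaglandin synthase Ptgs2 at 1.18, and Il1b was at 0.98, Tnf at 0.68 and Osm at -0.80. Among the 16 AP-1, ETS and RUNX factors, 3 were at least 2-fold higher (Fos 1.49, Elf3 1.42 and Junb 1.01) and 2 at least 2-fold lower (Fosb -1.37 and Etv5 -1.12). Jun was at 0.01 and Ets1 at -0.01.

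**Figure D4:**
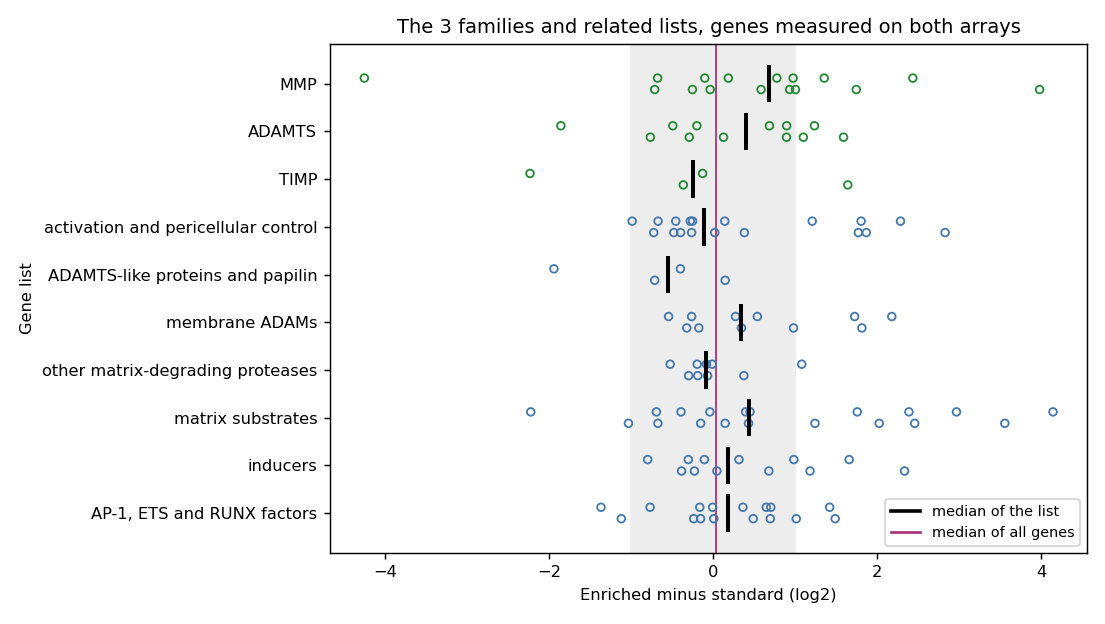
Enriched minus standard environment differences (log2) of the genes measured on both arrays in the 3 families (green) and 7 related lists (blue), with the median of each list (black) and of all genes (purple line, 0.03) and the zone within 2-fold shaded. The MMP median is 0.68 and the ADAMTS median 0.41, and the 7 related lists have medians from -0.56 to 0.43.

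How the intensities were processed changed which members passed 2-fold. Mmp3, Mmp23, Timp1 and Adamts15 were at least 2-fold higher, and Adamts8 and Timp4 at least 2-fold lower, under each of the 12 alternatives tried. Mmp8 was at least 2-fold lower in the 11 that gave a value, from -4.26 to -2.45. Mmp10, Mmp19, Adamts2, Adamts12 and Mmp15 passed 2-fold in the main processing and fell short of it under at least 1 alternative. Conversely, Mmp13, Mmp14, Adamts5 and Adamts9 lay within 2-fold in the main processing and were at least 2-fold higher under at least 1 alternative. With normexp background correction 4 members remained at least 2-fold higher, against 3.21% of all genes.

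**Figure D5:**
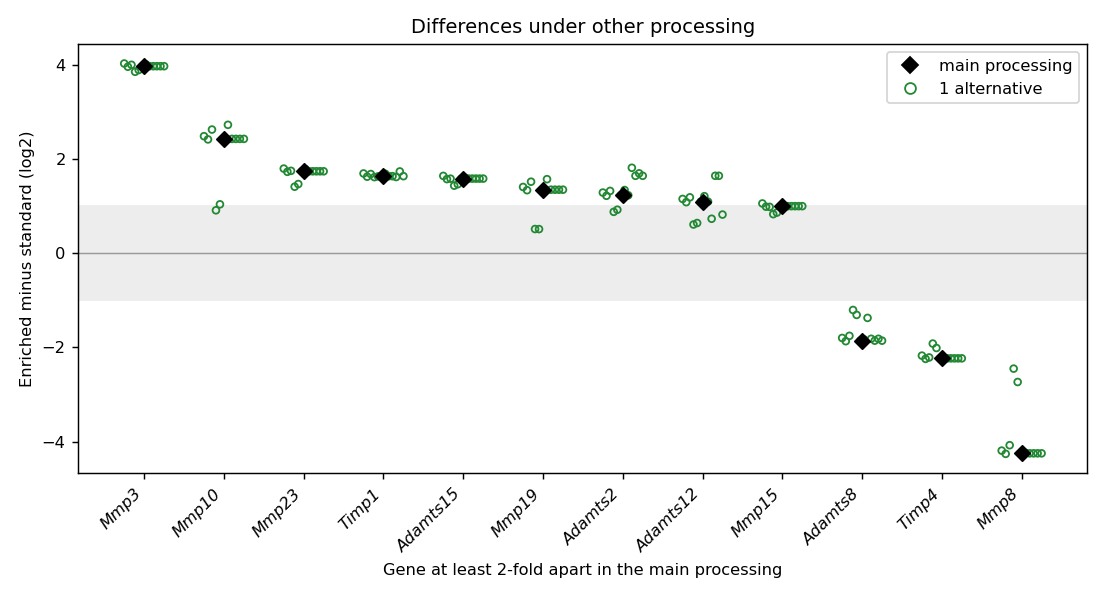
Enriched minus standard environment difference (log2) of the 12 genes that were at least 2-fold apart, in the main processing (diamonds) and under each alternative (circles), with the zone within 2-fold shaded. Mmp3 stays between 3.86 and 4.03, while Mmp10 spans 0.91 to 2.73 and Mmp8 spans -4.26 to -2.45.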

How the data were processed

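Tumour RNA pooled from 6 mice per housing was labelled with Cy3 and hybridised to 1 array per pool, and both arrays lie on 1 slide, per the file headers. The authors made the deposited linear intensity per spot in Agilent Feature Extraction, version 10.7.1.1 in the submitters' processing notes. This software removes a spatial background and marks spots well above background. Such steps change dim spots more than bright ones. The deposited log2 table, with 30319 probes, correlated with the scanner values at r = 1.00 in both pools. The authors' scaling and centring of it are not given in the sources used here, its column medians were 8.54 and 8.56, and it was used only as an alternative.

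Each processed intensity was divided by the 75th percentile of its array (753 standard, 984 enriched) and put on a log2 scale. The 1639 control spots and the spots flagged as outliers (66 and 70) were left out, and no spot was saturated. Of the spots, 77.2% and 77.4% were well above background. Spots of a probe, then probes well above background on both arrays, were averaged per gene. Where a gene was above background on 1 array only, a bound was computed from its level there and, on the other array, either the lowest level above background (-5.68 standard, -6.21 enriched) or the probe's own signal if higher. Member names are those of the array files, and 53 of 73 member probes matched a RefSeq transcript of the same symbol. Probe positions are on mm7, per the file headers. Members, lists and tests were chosen with earlier results of these data known.

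With 1 array per group there was no test, and genes were called at a 2-fold difference. Every called member, every member above background on 1 array, all TIMPs and the least different member of each role group are named. Not every gene of the related lists is reported here. Steps were tested on simulated data. Normexp correction used limma 3.58.1 with an offset of 50, and the rest used Python 3.11.15. Tried were 12 alternatives, 1 of them chosen after seeing the data, the restriction to probes of RefSeq transcripts.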

Additional observations from a re-analysis of the deposited data

How the results depend on the processing

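No paired analysis was possible because each housing had 1 pooled sample. A value counted as moved when it shifted by at least 0.17, the median SD between probes of a gene. The count of members at least 2-fold higher, 9 in the main processing, was 4 with normexp and 5 without background subtraction, and from 7 to 11 under the other 10 alternatives. The count at least 2-fold lower, 3, was 7 without a filter on dim probes and 2 or 3 otherwise. The MMP median of 0.68 was 0.18 without the filter and 0.85 with a stricter one. The ADAMTS median of 0.41 was 0.18 with normexp, 0.22 without background subtraction, -0.20 without the filter and 0.58 with a stricter one. The TIMP median of -0.25 was -0.072 in the deposited log2 table. The filter alternatives change which genes enter, and the cause of the other shifts was not tested. Of the differences of at least 2-fold, none changed sign under any of the 12 alternatives. Low signal limits Mmp8, Mmp10, Mmp12, Mmp19, Mmp21, Adamts16 and Adamts20, whose dimmer level lay near or below the limit of detection. For Adamts12 this holds for 1 of its 3 probes, at -5.14 in the standard pool. With normexp the bounds were 1.17 for Mmp12, 1.101 for Adamts16, 0.61 for Adamts20 and 0.58 for Mmp21 on the log2 scale.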

Other observations

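Several members sit inside or beside other genes, and the pairs differed unequally. In the RefSeq annotation Timp1, Timp3 and Timp4 overlap the synapsin genes Syn1, Syn3 and Syn2. The differences within these pairs were 1.64 for Timp1 and -0.55 for Syn1, -0.36 for Timp3 and -0.70 for Syn3, and -2.23 for Timp4 and -0.13 for Syn2. Timp4 is followed by Pparg, a regulator of fat cells, at 1.51. Adamts1 and Adamts5, neighbours on chromosome 16, were at -0.49 and 0.89.

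The probes that departed from the others of their gene, chosen after their values were seen, lay between other probes of the gene or on the same transcript. For Adamts2 the probe at -0.30 lies on chromosome 11 at 50754733-50754792 of mm7, between probes at 1.60 (50733443-50733502) and 1.70 (50760727-50760786), and was designed on a cDNA clone. For Adamts12 the probe at -0.18 lies on chromosome 15 at 11394446-11394505, between probes at 1.83 (11358202-11358261) and 1.65 (11406886-11406945), and was designed on the RefSeq transcript. For Adamts16 the probe above background in the enriched pool, at -2.82 there, and the dim probe, at -6.28, were both designed on the RefSeq transcript. Of the 14 members with several measured probes, 10 had all of them on 1 side of 0.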
